A study of Mus musculus with 6 samples.

Results

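The transcription factors and effectors of the integrated stress response were followed in Neuro2a cells, a mouse neuroblastoma line, with and without D-serine, the D-enantiomer of the amino acid serine, which also acts on NMDA receptors. The 10 genes were Atf4, Atf3, Atf5, Ddit3, Trib3, Cebpb, Cebpg, Chac1, Sesn2 and Asns, taken by symbol from a table of 24391 genes. Each of the 10 symbols stood for 1 row, and all 10 were expressed highly enough to be tested, as were 13366 genes in all. Poly(A) RNA was sequenced from 3 control samples that received vehicle and 3 samples that received 5 mM D-serine, all kept for 18 h in D-MEM(-SG), as the labels write it, plus FBS. All 6 libraries come from 1 cell line, and the labels do not say whether replicates were separate cultures, so p-values measure the spread between these samples.

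In the integrated stress response, kinases that sense amino acid shortage, misfolded protein, viral RNA or haem deficiency phosphorylate the translation factor eIF2. General translation then falls, while the mRNA of the transcription factor ATF4 is translated more, so the level of Atf4 mRNA is only part of its control. ATF4 binds DNA with partners of the C/EBP family at composite sites and induces amino acid synthesis and transport genes, further transcription factors such as CHOP (gene Ddit3), and feedback inhibitors such as TRIB3.

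The composite site of ATF4 and C/EBP proteins was looked for in the RefSeq promoter table of GRCm38.p6, in windows from 250 bases before to 50 bases after each start site. Windows were matched by symbol for all 10 genes (11 windows, since Atf5 has a pair). The letters TGATGNAA, searched on both strands, were found in the windows of Asns, Atf3, Chac1 and Trib3, which is 4 of the 10 genes. Over all windows of the same length, 3.97% held a match. By gene, 4.51% of all genes with a window and 2.84% of tested genes with a window did. The 10 genes were chosen for their part in the response, so their share describes that choice and was not tested. Composite sites outside these windows or with other letters were not searched for, so a gene without a match may still have one. The stretches of 30 bases around the 4 matches are shown, read 5′ to 3′ on the strand of the gene, with the match in capitals.
Asns (chr6:7693214-7693243, minus strand): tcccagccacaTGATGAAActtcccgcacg
Atf3 (chr1:191183425-191183454, minus strand): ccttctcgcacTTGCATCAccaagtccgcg
Chac1 (chr2:119351038-119351067, plus strand): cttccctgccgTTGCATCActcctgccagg
Trib3 (chr2:152344028-152344057, minus strand): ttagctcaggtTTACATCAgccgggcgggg
The Asns match reads in the direction of transcription and starts at base -23 from the start site. Those of Atf3 (base -110), Chac1 (base -193) and Trib3 (base 15) are the reverse complement of the searched letters. Atf3 and Chac1 share the same 8 letters. The cAMP response element TGACGTCA, a palindrome, was in none of the 11 windows, against 1.79% of all windows. A match is a description of the sequence, not a measured binding site.

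The libraries held between 32518483 and 40024265 counts. D-serine replicate 1 stood apart from its group, with a chi-square statistic per degree of freedom of 17.7 and 13.9 against the other D-serine libraries, where the remaining pairs of the same group lay between 3.88 and 6.54. It was also the library in which long genes were most reduced (slope of -0.072 log2 CPM per log2 of length). The slope was 0.0058 in D-serine replicate 2, -0.0040 in D-serine replicate 3 and 0.015 to 0.036 in the controls. Every D-serine slope thus lay below every control slope, so the length trend differed between the groups too. The value of D-serine replicate 1 is given for each of the 10 genes, and the fit was repeated without it. The called genes of the other lists named below by their log2 fold changes also passed without it. The 10 genes have a median exon length of 1951.5 bases, against 2834.5 for all tested genes. Of the 12 markers of sympathetic neuroblastoma listed, Hand2 was at 239 to 261 CPM (counts scaled to the size of the library). The summed level of the 12 was 1618 to 1713 CPM in control and 1713 to 1844 CPM with D-serine, and 1 of them, Tubb3, passed the test (higher). The 7 macrophage markers summed to at most 2.17 CPM, with Adgre1 at 0 in every library, and of the 7 fibroblast markers Col3a1 and Lum were at 0. Fbln1, at 72.3 to 87.1 CPM, held most of the fibroblast sum, which was 84.7 to 93.0 CPM in control and 78.4 to 82.8 CPM with D-serine. Fbln1 was lower in every D-serine library than in any control (log2 fold change -0.16) but did not pass the test (edgeR adjusted p = 0.0685), and its part in the results was not tested.

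These genes were strongly expressed. Per kilobase of exon (RPKM, here the CPM divided by exon length), Asns, at 621 ± 18.2 RPKM, and Atf4, at 602 ± 9.64 RPKM, had the highest control levels (mean ± SD of 3 libraries). Their control ranges overlapped, and in all 3 D-serine libraries Atf4 was above Asns. Atf5 followed at 355 ± 15.3 RPKM, then Ddit3 at 295 ± 2.71, Trib3 at 151 ± 3.18, Chac1 at 118 ± 1.16, Sesn2 at 53.5 ± 2.37 and Cebpg at 46.4 ± 1.14 RPKM. Atf3, at 37.1 ± 1.84 RPKM, and Cebpb, at 36.1 ± 1.15 RPKM, were the lowest and overlapped in control. The lowest of them, Cebpb, was above 82.1% of all tested genes per length, and Asns was above 99.4%. The response genes were thus well expressed without D-serine too.

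Of the 10 genes, 1 passed the test: Cebpb fell with D-serine. In RNA from bulk samples, fewer expressing cells and less RNA per cell cannot be told apart. The share of genes that passed over the whole table was 9.74%, so the members' share of 10% was near the background. At an unadjusted p under 0.05 in the same edgeR fit there were 7 of 10, against 28.2% of all genes. Control and D-serine libraries were fully separated in 5 genes, 2 higher (Atf4 and Ddit3) and 3 lower (Trib3, Cebpb and Sesn2), against 32.9% of all genes. The median log2 fold change of the 10 was -0.062, against 0.0053 for all tested genes. Differences ran from -0.26 for Cebpb to 0.17 for Atf3, the larger in size being a fall of 16.4%, and all 10 lay within the middle 90% of all genes (-0.30 to 0.46).

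**Figure D1:**
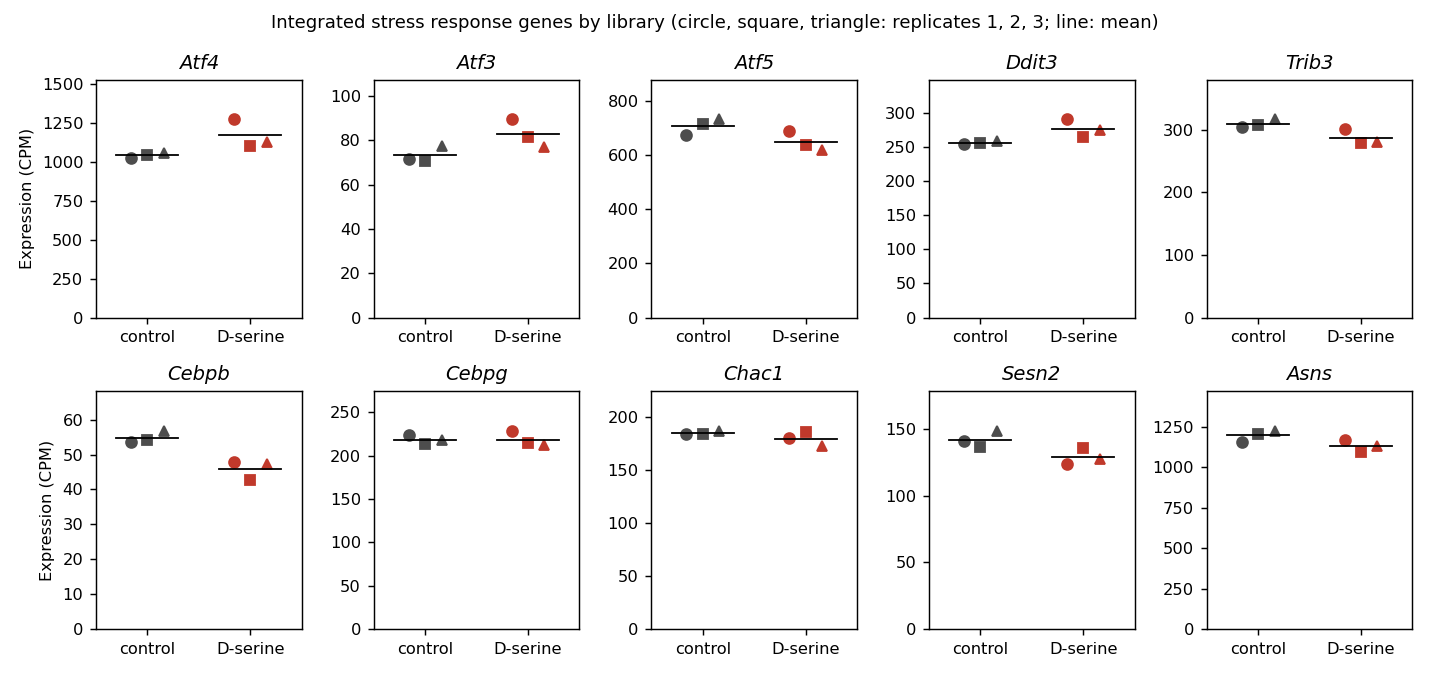
Expression in CPM (y axis, from 0, a separate scale per gene) of the 10 response genes in each of the 3 control (grey) and 3 D-serine (red) libraries, with the group mean as a line. Atf4 and Ddit3 lie wholly above control with D-serine, Trib3, Cebpb and Sesn2 wholly below, and the other genes overlap.

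Atf4, the central transcription factor of the response (chromosome 15, 80085614 to 80087975, plus strand, as deposited), had 1023, 1044 and 1056 CPM in control replicates 1 to 3. With D-serine it had 1272, 1104 and 1129 CPM. All D-serine libraries lay above all control libraries, and D-serine replicate 1 was the highest of the 6. This gave a log2 fold change of 0.17 (SE 0.050, 95% interval 0.059 to 0.27), 12.2% higher, with an edgeR adjusted p of 0.0527, just above the threshold of 0.05. Without D-serine replicate 1 the difference was smaller, at 0.10, and passed the threshold (adjusted p = 0.0329). Atf4 passed in 9 of the 19 alternatives, with log2 fold changes of 0.079 to 0.21 and adjusted p-values of 0.0093 to 0.189 over all of them. With the trend of each library on gene length removed it was 0.095 and did not pass (adjusted p = 0.107). It was 0.12 and passed (adjusted p = 0.0176) once that trend was centred on 0 over genes, a step chosen after the uncentred result had been seen.

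Atf3, a transcription factor of the same basic leucine zipper (bZIP) class that ATF4 induces, was expressed at 71.8, 70.6 and 77.4 CPM in control and at 89.5, 81.5 and 77.0 CPM with D-serine. D-serine replicate 3 lay below control replicate 3, so the groups overlapped. A log2 fold change of 0.17 (SE 0.061, edgeR adjusted p = 0.0849) did not pass the test, and was 0.11 without D-serine replicate 1.

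Ddit3 encodes CHOP, a C/EBP-related factor linked to cell death under prolonged stress. It had 255, 256 and 259 CPM in control and 291, 265 and 275 CPM with D-serine, with no overlap between the groups. The control libraries were close to each other (coefficient of variation 0.92%). Ddit3 had a log2 fold change of 0.11 (SE 0.044, edgeR adjusted p = 0.128), and 0.072 without D-serine replicate 1 (adjusted p = 0.185). It was -0.0066 with the length trend of each library removed (adjusted p = 0.922) and 0.020 with the centred trend removed. At 871 bases, Ddit3 is the shortest of the 10. It shares 68 exonic bases with Mars on the opposite strand.

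Atf5, an ATF4-related factor that also acts in the mitochondrial stress response, had 674, 718 and 733 CPM in control against 691, 639 and 620 CPM with D-serine. D-serine replicate 1 lay above control replicate 1, and the other D-serine libraries lay below all controls. Over all libraries the log2 fold change was -0.12 (SE 0.049, edgeR adjusted p = 0.116). Without D-serine replicate 1 it was -0.17 and passed the test (adjusted p = 0.00375). Atf5 shares 64 exonic bases with Nup62 and 82 with Nup62-il4i1, both on the opposite strand.

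The C/EBP genes differed from each other. Cebpb, a binding partner of ATF4 and itself a regulator of differentiation and inflammation (chromosome 2, 167514415 to 167515932, plus strand, as deposited), had 53.5, 54.2 and 56.8 CPM in control. With D-serine it fell to 47.8, 42.6 and 47.2 CPM, each below every control library. Cebpb thus had a log2 fold change of -0.26 (SE 0.058, 95% interval -0.38 to -0.13, edgeR adjusted p = 0.0190), a fall of 16.4%. Cebpb lost its call, with adjusted p-values between 0.0519 and 0.0740, when any of the 3 control libraries or D-serine replicate 3 was left out. Without D-serine replicate 1 it passed (-0.29, adjusted p = 0.00302). A Tmem189 transcript of GENCODE M21 matched Cebpb over 320 bases at 99.4% identity. In the deposited exons Cebpb shares 0 bases with any other gene. Whether reads from the matching stretch were assigned to Tmem189 or Cebpb was not tested.

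Cebpg, a C/EBP protein without an activation domain that pairs with ATF4, had 224, 213 and 218 CPM in control and 229, 214 and 212 CPM with D-serine. Its log2 fold change was 0.0012 (SE 0.045, 95% interval -0.095 to 0.097, edgeR adjusted p = 0.990), and its sign turned in 5 of 19 alternatives, with values down to -0.033. Its long transcript matched those of other genes over stretches of 124 to 170 bases at 90% identity or more, so part of its reads may not be unique. The exact handling of such reads is not given in the sources used here.

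All 4 effector genes had negative log2 fold changes, none of them past the threshold with all 6 libraries. Asns encodes asparagine synthetase, the standard target gene of the amino acid response. Its level was 1158, 1207 and 1226 CPM in control and 1169, 1095 and 1131 CPM with D-serine, with overlap through control replicate 1 and D-serine replicate 1. Asns had a log2 fold change of -0.081 (SE 0.040, edgeR adjusted p = 0.205), and -0.11 without D-serine replicate 1, which passed the test (adjusted p = 0.0358).

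Trib3, the pseudokinase that binds and restrains ATF4 and inhibits AKT, had 304, 308 and 317 CPM in control and 301, 278 and 280 CPM with D-serine. The groups did not overlap, though D-serine replicate 1 (301.5 CPM) lay close to control replicate 1 (303.9 CPM). The log2 fold change was -0.11 (SE 0.044, edgeR adjusted p = 0.125), and -0.15 without D-serine replicate 1, past the threshold (adjusted p = 0.00789).

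Sesn2 encodes sestrin 2, a leucine sensor that restrains mTORC1. It had 141, 136 and 149 CPM in control and 124, 136 and 128 CPM with D-serine. D-serine replicate 1 was the lowest library of the 6, and D-serine replicate 2 lay just under control replicate 2 (136.1 against 136.4 CPM). For Sesn2 the log2 fold change was -0.14 (SE 0.050, edgeR adjusted p = 0.0967), and without D-serine replicate 2 it was -0.18 with an adjusted p of 0.0466. Without D-serine replicate 1 it was smaller in size, at -0.11, and did not pass (adjusted p = 0.1135).

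Chac1, which degrades glutathione and is induced by ATF4, had 184, 184 and 187 CPM without D-serine and 180, 186 and 173 CPM with it. The groups overlapped. The log2 fold change of -0.044 (SE 0.043, 95% interval -0.14 to 0.048, edgeR adjusted p = 0.531) did not pass the test. Chac1 passed in 1 of the 19 alternatives, with the length trend removed (-0.12, adjusted p = 0.0300), and not once that trend was centred (-0.098, adjusted p = 0.0771).

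**Figure D2:**
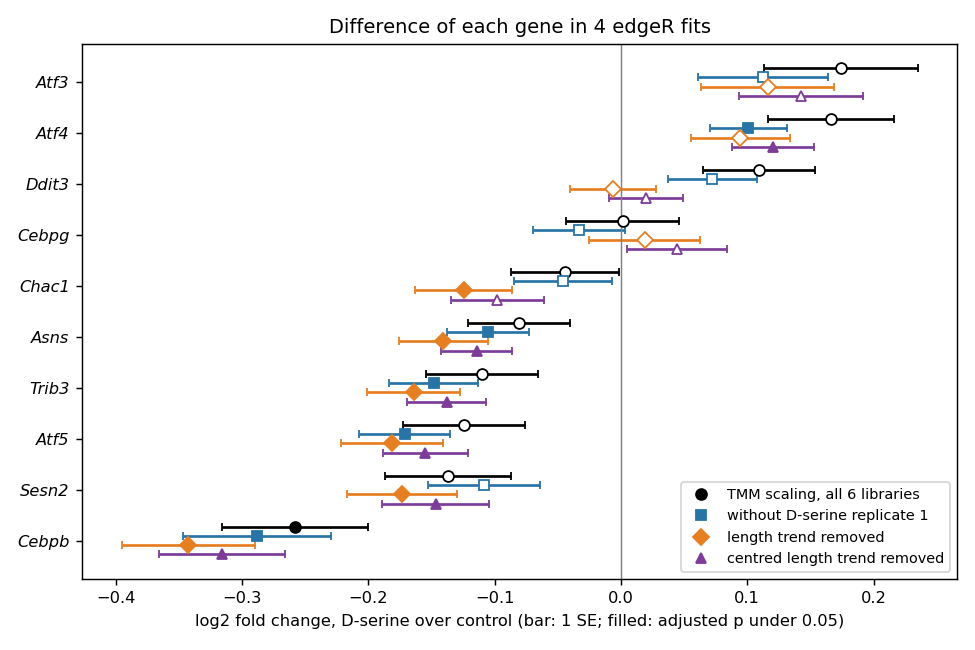
The log2 fold change of D-serine over control (x axis, with 1 SE) for the 10 genes in 4 edgeR fits, with filled symbols for an adjusted p under 0.05. In the fit shown in black Cebpb alone is filled, and Atf4 stays right of 0 while Atf5, Trib3, Asns, Sesn2 and Cebpb stay left of it in all 4 fits, and Ddit3 lies at 0.11 in the black fit and at -0.0066 with the length trend removed.

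The spread among D-serine libraries was larger than among controls in 10 of 10 genes, with a median coefficient of variation of 4.79% against 2.70%. Over all tested genes the D-serine spread was the larger in 57.8%, at 6.46% against 5.13%. D-serine replicate 1 was the highest of its group in 8 of the 10 genes and the lowest in 1 (Sesn2), whereas over all tested genes it was the highest in 36.9% and the lowest in 40.2%. Leaving that library out gave 5 of 10 genes past the threshold, against 12.5% of all genes in that fit, with Atf4 higher and Atf5, Trib3, Cebpb and Asns lower. Removing each library's trend on gene length, as planned, gave 6 of 10, against 15.8% of all genes, all lower: Atf5, Trib3, Cebpb, Chac1, Sesn2 and Asns. That fit also shifted the scaling between libraries, and over all genes it called 5.24% higher and 10.6% lower. With the trend centred, which left the scaling in place and was chosen after the planned result had been seen, there were again 6 of 10, against 15.3% of all genes, with Atf4 (higher) in place of Chac1. Calls of Atf4 and Chac1 thus depended on this choice, while Atf5, Trib3, Cebpb, Sesn2 and Asns fell in both fits. Since the length trend also differed between the groups, both fits removed part of a group difference along with the trend of D-serine replicate 1. What sets D-serine replicate 1 apart was not tested, nor was the source of the length trend.

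Ratios between the genes within a library do not depend on how libraries are scaled. They were computed after the values of the single genes were seen, with Atf4 as the common denominator, so the 9 comparisons share its counts. Asns gave 1132, 1156 and 1161 counts per 1000 Atf4 counts in control and 919, 992 and 1001 with D-serine, a difference of -0.24 on the log2 scale. Trib3 gave 297, 295 and 300 per 1000 in control and 237, 252 and 248 with D-serine. For Cebpb the ratio was 52.3, 52.0 and 53.8 in control and 37.6, 38.6 and 41.8 with D-serine.

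In 8 of these 9 ratios every D-serine library lay below every control library. Since Atf4 itself was higher in every D-serine library, lower ratios were common: 41.5% of the 13365 other tested genes were likewise separated below control and 3.51% above. The median log2 difference of the ratio was -0.16 over the genes with a count in every library, and -0.24 over the 9 response genes. The ratios of Cebpg (-0.16) and Ddit3 (-0.056) differed by no more than about that median. The exception was Atf3, with 70.4 ± 2.82 counts per 1000 Atf4 counts in the controls against 70.8 ± 2.85 in D-serine samples (mean ± SD of 3 libraries; two-sided exact permutation p = 0.7). The ratio of Ddit3 differed least of the 8, at 247 ± 1.89 in control and 237 ± 7.72 with D-serine. For each of the 8, the exact permutation p was 0.1, the smallest that 3 libraries against 3 allow, and 0.113 after Benjamini-Hochberg adjustment over the 9. These ratios include the difference of Atf4 and are no separate evidence on the other genes.

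**Figure D3:**
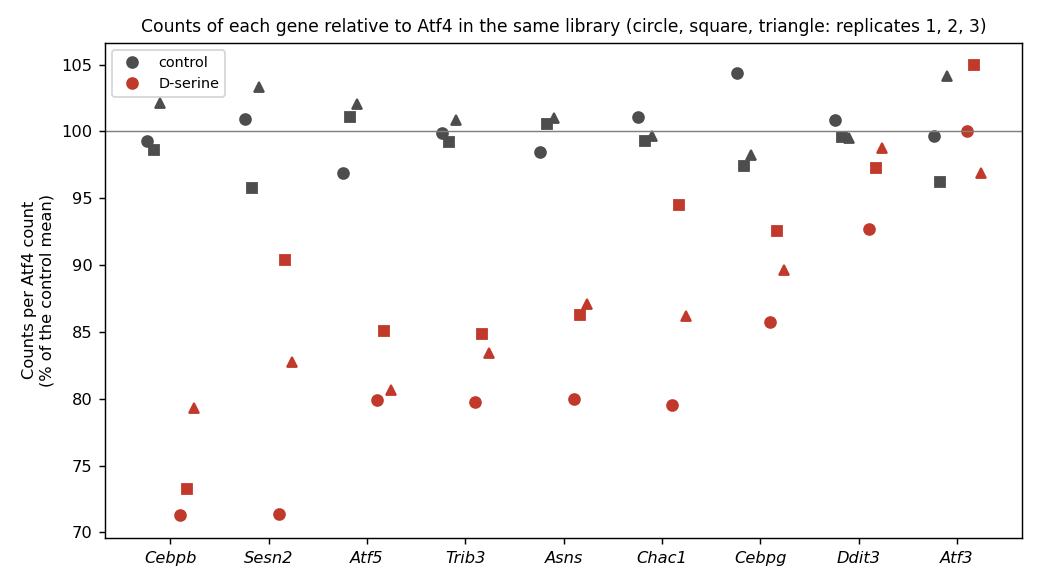
Counts of 9 genes per Atf4 count in the same library, as a percentage of the control mean (y axis, not from 0), for 3 control (grey) and 3 D-serine (red) libraries. All genes but Atf3 have their D-serine libraries below their control libraries.

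Beyond these 10, a list of other genes known to respond to amino acid shortage was mostly lower with D-serine. Of its 44 tested genes, 17 fell and 0 rose in the edgeR test, 38.6% against 9.74% of all genes (4.9% lower and 4.84% higher). That split of all genes depended on scaling, with 3.08% lower and 6.84% higher under upper quartile scaling and 3.08% lower and 7.06% higher with library totals, where the list had 10 and 11 lower genes and 0 higher. At an unadjusted p under 0.05 there were 25 lower and 2 higher genes, against 28.2% of all genes in either direction. DESeq2 called 21 lower and 0 higher, against 7.6% lower and 6.32% higher of all genes, and limma-voom 20 lower and 0 higher, against 4.99% and 4.44%. With the length trend removed 29 were lower and 0 higher, against 10.6% lower and 5.24% higher of all genes. With the centred trend removed 27 were lower and 1 higher, against 7.63% lower and 7.65% higher. The median log2 fold change was -0.14, against 0.0053 for all tested genes and -0.062 for the 10 genes. The list was written from general knowledge with earlier results of these data known, so it is not independent evidence of its direction.

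Among its 6 genes of smallest p, 3 encode transport proteins of the plasma membrane. The sodium-coupled transporter Slc38a2 had 1054, 1045 and 1030 CPM in control and 812, 862 and 816 CPM with D-serine (log2 fold change -0.33, edgeR adjusted p = 0.00145). Slc3a2, the heavy chain of amino acid exchangers, fell by 0.25 on the log2 scale (adjusted p = 0.0060), and the cationic amino acid transporter Slc7a1 fell by 0.30 (adjusted p = 0.0127). The cysteinyl-tRNA synthetase gene Cars (-0.27), the stress hormone gene Gdf15 (-0.29) and the tRNA exportin gene Xpot (-0.19) fell as well.

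Slc7a11, the cystine and glutamate exchanger, fell from 248, 254 and 243 CPM to 171, 216 and 208 CPM (log2 fold change -0.32, SE 0.070, edgeR adjusted p = 0.0162). Ddit4, which restrains mTORC1, had a log2 fold change of 0.11 (SE 0.049, adjusted p = 0.149) and did not pass. The number of called genes in the list depended on single libraries, as did the share called over all genes. Omission of control replicates 1, 2 and 3 in turn left 4, 2 and 5 called genes, and omission of D-serine replicate 3 left 5. Medians were -0.15 to -0.12 in these 4 fits, where 0.921%, 0.501%, 3.34% and 2.15% of all genes passed. Omission of D-serine replicate 1 gave 25, against 12.5% of all genes.

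The upstream parts of the response showed no common direction. The list held 18 genes for the eIF2 kinases, their regulators, the subunits of eIF2, the eIF2 phosphatase and the exchange factor eIF2B. Of these, 2 fell and 1 rose (16.7% called, against 9.74% of all genes), and the median was 0.038 on the log2 scale. Gcn1l1, which couples the kinase GCN2 to ribosomes, was at 276 ± 4.65 CPM in the controls and fell to 236 ± 21.7 CPM (mean ± SD of 3 libraries; -0.23 on the log2 scale, edgeR adjusted p = 0.0300). The eIF2B subunit gene Eif2b2 fell (-0.19, adjusted p = 0.0246), and Eif2s2, the beta subunit of eIF2, rose (0.14, adjusted p = 0.0406). All 3 of these calls were lost without any single control library, since 0 genes of the list then passed in edgeR (5 to 9 at an unadjusted p under 0.05). Over all genes 0.921%, 0.501% and 3.34% passed without control replicates 1, 2 and 3.

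The kinase genes Eif2ak4 (GCN2) and Eif2ak3 (PERK) had log2 fold changes of -0.093 (SE 0.065, edgeR adjusted p = 0.378) and -0.10 (SE 0.044, adjusted p = 0.152). Ppp1r15a (GADD34), the feedback subunit of the eIF2 phosphatase and itself an ATF4 target, had 411 ± 9.24 CPM in the controls against 398 ± 14.5 CPM in D-serine samples (mean ± SD of 3 libraries; -0.049 on the log2 scale, adjusted p = 0.473). None of these 3 passed the test. Phosphorylation of eIF2 was not measured in these data.

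Other bZIP genes, possible partners of ATF4 and the C/EBP proteins, included 1 that rose and 2 that fell of 23 tested (13% called, against 9.74%). Jun, a subunit of AP-1, rose from 289, 287 and 286 CPM to 353, 336 and 345 CPM (log2 fold change 0.26, SE 0.040, edgeR adjusted p = 0.00552). Fosb (-0.25, adjusted p = 0.0418) and Atf6 (-0.15, adjusted p = 0.0444) fell, and both calls were lost under upper quartile scaling or library totals, where 1 gene of the list passed. Both were also lost without any single control library or without D-serine replicate 3, and Atf6 with the length trend removed, centred or not. Jun passed in every fit but the one without control replicate 2.

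The XBP1 and ATF6 branches of the unfolded protein response, which act beside the ATF4 branch when protein folding in the endoplasmic reticulum fails, gave 1 higher and 3 lower genes of 20 (20% called, against 9.74%). The secreted folding factor gene Manf was at 351 ± 8.96 CPM in the controls and rose to 426 ± 19.5 CPM (mean ± SD of 3 libraries; 0.28 on the log2 scale, edgeR adjusted p = 0.00628). Herpud1 (-0.19, adjusted p = 0.0183), Hyou1 (-0.16, adjusted p = 0.0187) and Pdia6 (-0.18, adjusted p = 0.0279) fell. The chaperone gene Hspa5 (BiP), at 3976 ± 67.5 and 4091 ± 104 CPM, and Xbp1, with a log2 fold change of -0.10 (adjusted p = 0.106), did not pass. Without control replicate 1, control replicate 3 or D-serine replicate 3 only Manf was called, and without control replicate 2 there were 0 edgeR calls (6 genes at an unadjusted p under 0.05). Those fits called 0.921%, 3.34%, 2.15% and 0.501% of all genes, in the same order.

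**Figure D4:**
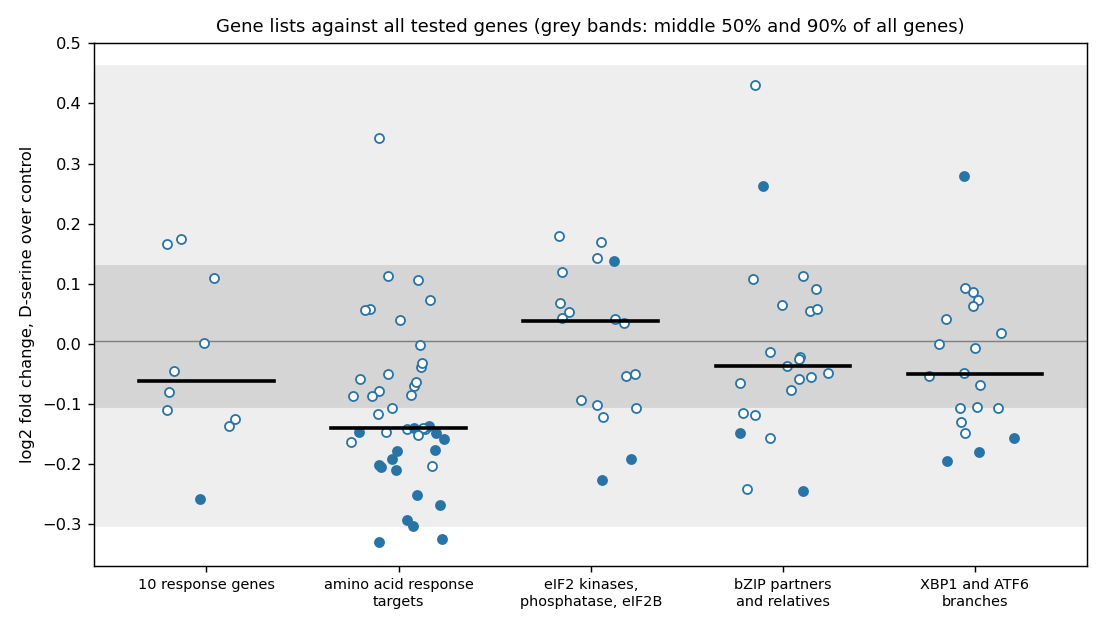
The log2 fold change of D-serine over control (y axis) of each tested gene in 5 lists, with filled points for an adjusted p under 0.05, the list median as a line, and grey bands for the middle 50% and 90% of all tested genes. The amino acid response targets have a median of -0.14 and 17 filled points, all below 0.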

How the data were processed

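The deposited table holds raw counts of the 6 libraries by gene symbol, beside exon coordinates and lengths, in the layout of featureCounts, per the file headers. The submitters' processing notes name bcl2fastq, Trim Galore, HISAT2, featureCounts, Subread and DESeq2, without versions, and the builds GRCm38 and mm10. The deposited start differed from that of RefSeq GRCm38.p6 for all 10 genes (314 of 23175 matched symbols had the same start), so positions are printed as in the deposited table, whose build is not named there. Strand setting and multi-mapping are not given in the sources used here. Counts were tested with edgeR 4.0.16 in R 4.3.3: filterByExpr, TMM scaling, quasi-likelihood F test without covariate, Benjamini-Hochberg adjustment over 13366 genes, threshold 0.05, two-sided. SE is the size of the log2 fold change divided by the square root of F. CPM used the TMM-scaled library size. Similar transcripts were sought with blastn 2.17.0 in GENCODE M21 (at least 90% identity over 100 bases). Alternatives included DESeq2 1.42.0 and limma 3.58.1 (voom). Length trends were natural splines with 5 degrees of freedom put in the offsets, as planned. Centring them on 0 over genes, to leave TMM scaling in place, was added after the planned fit's results had been seen, and both are reported. The test was checked on simulated counts. Named were the 10 genes, up to 6 called genes of smallest p per list, and Ppp1r15a, Eif2ak4, Eif2ak3, Ddit4, Slc7a11, Hspa5 and Xbp1. The members, lists and tests were chosen with earlier results of these data known. Values of some single marker genes are not reported here.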

Additional observations from a re-analysis of the deposited data

How the results depend on the processing

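The number of response genes past the threshold was 2 (1 higher, Atf4) with DESeq2, upper quartile scaling or library totals, and 3 (2 higher, Atf4 and Atf3) with no filter on low counts, where 13.9%, 9.92%, 10.1% and 10.6% of all genes passed. It was 6 (0 higher, 6 lower; median log2 fold change -0.13) with the length trend removed, where Ddit3 turned to -0.0066. Centring that trend was chosen after seeing this result, and gave 6 (1 higher, 5 lower; median -0.11), or 5 (1 higher, 4 lower) with D-serine replicate 1 also left out. Over all genes 15.8% passed with the length trend removed, 15.3% with it centred, and 13.8% with D-serine replicate 1 also left out. Leaving out 1 library gave 0 to 5 genes (0 to 1 higher, 0 to 4 lower), with medians of -0.076 to -0.049. The edgeR count was 0 without any 1 of the control libraries or without D-serine replicate 3, where 3 to 6 genes had an unadjusted p under 0.05. Of all genes, 0.921%, 0.501% and 3.34% passed without control replicates 1, 2 and 3, and 2.15% without D-serine replicate 3. The amino acid response targets gave 10 calls under upper quartile scaling, 11 with library totals, 29 with the length trend removed, 28 with the centred trend removed, 27 with D-serine replicate 1 also left out, and 2 to 25 in the fits without 1 library. The eIF2 list gave 5 with DESeq2 and 0 to 4 without 1 library. The bZIP list gave 1 under upper quartile scaling or library totals and 0 to 4 without 1 library. The XBP1 and ATF6 list gave 7 with the length trend removed, centred or not, and with the centred trend removed and D-serine replicate 1 left out, and 0 to 8 without 1 library. The cause of these changes was not tested. Cebpg was -0.0021 with DESeq2 and with its size factors, between -0.033 and 0.021 in the fits that each left out 1 library, and -0.010 with the centred length trend removed and D-serine replicate 1 left out. The 8 genes besides Cebpg and Ddit3 kept their sign in all 19 alternatives.

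With replicate number as a block, 0 response genes passed (4 at an unadjusted p under 0.05; Cebpb adjusted p = 0.0519, edgeR), as did 5 amino acid response targets, 0 genes of the eIF2 list, 1 of the bZIP list and 1 of the XBP1 and ATF6 list, against 298 genes in all (2.23%). With the block and the length trend removed, 5 response genes passed (0 higher, 5 lower, median -0.13; Ddit3 -0.0067), 28 targets and 7 genes of the XBP1 and ATF6 list, against 14.1% of all genes. With the block and the centred trend, 6 response genes passed (1 higher, 5 lower, median -0.11), 27 targets and 7 genes of that list, against 14.2%. The labels do not say that samples of equal number share a culture or day, so the numbers were not taken as pairs. Deviations of samples that share a number had correlations of -0.069, 0.020 and -0.019 for numbers 1 to 3. Control replicate 2 correlated best with its own number, while control replicates 1 and 3 did not.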

Other observations

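The letters TGATGNAA were also counted in the promoter windows of the wider list of amino acid response targets. Of 35 listed genes with a RefSeq window, 11 held a match (31.4%), against 2.84% of tested genes with a window and 4.51% of all genes with a window. The 35 were taken whether tested or not, and the 11 include Vldlr, which was not tested. Genes were put on this list for their known response, so the share describes the list and was not tested. Of the 15 called genes with a window, all lower with D-serine, 4 held a match, Slc7a11, Iars, Tars and Yars. That compares with 11 of the 35 on the list, called or not, and with 34 of 988 called genes over the whole table. Whether the match goes with the fall was not tested. Slc7a11, the cystine and glutamate exchanger, held the letters in both orientations, 19 bases apart and starting at bases -66 and -47 from the start site (GRCm38.p6, minus strand).
Slc7a11, first match (chr3:50443661-50443690): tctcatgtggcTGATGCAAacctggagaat
Slc7a11, second match (chr3:50443642-50443671): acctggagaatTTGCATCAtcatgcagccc
The stretches overlap by the 11 bases between the matches. The same 8 letters as in the second match are in the Atf3 and Chac1 windows, whose genes did not pass the test. They are also in the windows of Iars, Tars and Herpud1, which passed and were lower with D-serine. Aars, Nupr1 and Fgf21, which did not pass, hold them too, as does Vldlr, which was not tested.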
